A study of Homo sapiens with 6 samples.

Results

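The genes described here are 2 forkhead box O (FOXO) transcription factors, FOXO1 and FOXO3, and 8 genes reported as their targets or as partners in the same insulin-responsive circuit: IRS1, IRS2, BCL6, CITED2, CCNG2, SESN3, TXNIP and PINK1. The probe sets of the array that name such a gene and no other were taken, and their log2 values were averaged in each array to give that gene's level. All 10 genes were found, with 79 probe sets between them, out of 18656 genes in all. AGS cells, an established human gastric adenocarcinoma line, had been transfected with an inhibitor of the microRNA miR-25-3p (3 arrays) or with a non-targeting control RNA (3 arrays). Both groups were transfected again after 24 h and harvested 48 h after the first transfection. No genotype or other treatment is given in the labels, and both groups share the line, the transfection reagent and the timing. Each sample is called a biological replicate in the labels, which do not say whether the cultures were handled on separate days. The spread between arrays may thus be partly technical. If the cultures were handled together, that spread may be smaller than between independent cultures. The standard errors (SE), intervals and p-values below would then overstate the precision. The list was selected on the measured inhibitor-minus-control differences of these arrays as well as on known biology (BCL6, PINK1 and IRS1 had been singled out earlier by them), so the differences of the 10 genes are a description and carry no test.

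FOXO proteins are held in the cytoplasm when insulin or growth factors activate PI3K and AKT, because AKT phosphorylates them and the phosphorylated form is exported from the nucleus. When that signal is low they enter the nucleus and bind DNA at a short element with the core GTAAACA, raising genes of cell-cycle arrest, antioxidant defence, autophagy and insulin sensitivity. Much of this control acts on the protein, so messenger RNA of the factors says little about their activity, which was not measured here.

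The microRNA that the inhibitor is directed against, and its closest relative by sequence, are shown because they carry the same seed. Capitals mark the seed, bases 2 to 8, which a microRNA uses to find its messages. The sequences are from RefSeq (GRCh38.p14), 5′ to 3′.
hsa-miR-25-3p: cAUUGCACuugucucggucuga
hsa-miR-92a-3p: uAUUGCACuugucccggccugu
The mature miR-25-3p lies at chr7:100093571-100093592 on the minus strand. It shares its seed with 6 mature names in all, itself included, from 7 loci, and matches miR-92a-3p at 18 of 22 positions. Neither microRNA was measured on these arrays.

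The FOXO core element was searched as GTAAACA on both strands in the RefSeq promoter windows (GRCh38.p14), which run from 250 bases before to 50 bases after an annotated start. Windows were found for 9 of the 10 genes, 16 windows in all, and PINK1 was not among them. The single window with the letters belonged to TXNIP, and it is shown with the element in capitals, at chr1:145996687-145996713 on the minus strand.
TXNIP: cgggctcctgGTAAACAaggaccgggc
The element starts 124 bases before 1 of the 2 annotated TXNIP starts. Of 35116 windows in the table, 3.42% hold these letters. The windows of these genes were 40.0% to 79.3% G and C, against a median of 58.7% over all windows. No match in a window says only that these letters are not in those 300 bases.

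The 6 arrays were alike, with column medians of 6.02 to 6.07 on the log2 scale. Control replicate 1 had the lowest mean correlation with the other arrays, 0.9915, against 0.9933 to 0.9938 for those. Epithelial markers fitted the labelled line: the group means of all 6 (KRT8, KRT18, KRT19, EPCAM, CDX1 and CLDN4) lay above the array medians. CDX1 was close to them, with group means of 6.14 and 6.31, and read 5.95 in control replicate 2, whose median was 6.06. Of 13 measured markers of fibroblasts, leukocytes and endothelium, 11 lay below the array medians, the exceptions being COL1A1 and LYZ. The mean of the 4 leukocyte markers was 4.71 to 4.83 in control and 4.89 to 5.04 in inhibitor arrays, and that of the 4 endothelial markers 3.64 to 3.90 and 3.59 to 3.60, without overlap. Single genes carried most of both shifts. Among the leukocyte markers CD14 had a difference (inhibitor minus control) of 0.46, without overlap of arrays, against 0.17 for CD3E, 0.073 for PTPRC and -0.048 for LYZ, which overlapped. Among the endothelial markers PECAM1 had -0.46 with overlapping arrays, KDR -0.11, and VWF and CDH5 -0.029 each. Of the epithelial markers only EPCAM, with a difference of 0.21, had no overlap of arrays. The mean of the 6 epithelial markers overlapped, at 9.53 to 9.58 in control and 9.55 to 9.67 in inhibitor arrays. PTPRC, which defines leukocytes, lay between 2.33 and 2.76 and PECAM1, listed here as an endothelial marker, between 2.98 and 3.87. The part of these markers in the values below was not tested.

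Across the 10 genes, 7 had a negative and 3 a positive difference (inhibitor minus control, log2), with a median of -0.051. Over all genes the median was 0.0021, and 49.3% had a negative difference. The fit over all genes (limma, with Benjamini-Hochberg adjustment) called 0% of genes higher and 0% lower at an adjusted p of 0.05. None of the 10 genes was called, with adjusted p from 0.79 to 1.00 in limma. At an unadjusted p under 0.05, 2 of the 10 were lower (BCL6 and PINK1), against 3.16% of all genes, and 0 higher, against 2.95%. PINK1 did not stay under that threshold when its identical probe sets were counted once. BCL6 and PINK1 were also the only members whose 3 inhibitor arrays were each below the lowest control array, an order found in 7.68% of all genes. For 0 of the 10 was each inhibitor array above the highest control array, against 5.19% of all genes. Since this comparison guided the choice of the genes, nothing is read from these shares. In the middle 90% of all genes, the difference lay between -0.22 and 0.24, and 9 of the 10 genes fell inside that range.

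**Figure D1:**
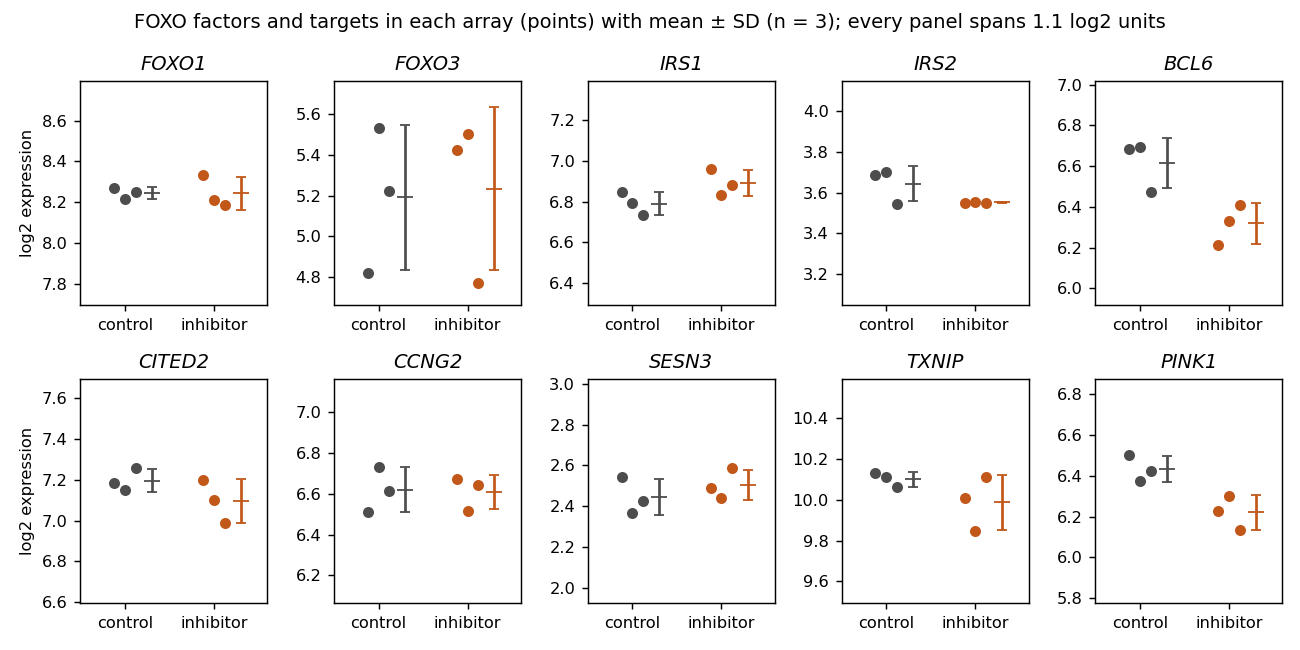
Log2 expression of the 10 genes in each array (points: 3 control in grey, 3 inhibitor in orange), with the mean and SD of each group beside them; every panel spans the same height on the y axis. BCL6 and PINK1 are the panels in which no inhibitor point reaches the control points, and FOXO3 has the widest scatter in both groups.

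**Figure D2:**
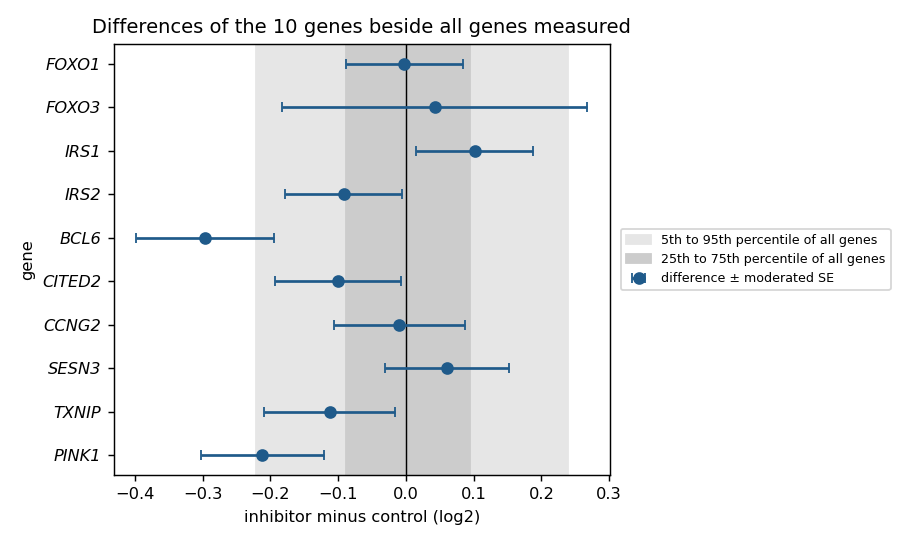
Difference of each gene, inhibitor minus control on the log2 scale (points, with the moderated SE as bars), over bands that hold the middle 50% and 90% of all 18656 genes. BCL6, at -0.30, is the gene outside the wider band, and PINK1, at -0.21, lies just inside it.

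FOXO1, the factor best known for gluconeogenic and insulin-response genes, had nearly the same mean in both groups. Its values were 8.27, 8.21 and 8.25 in the control arrays and 8.34, 8.21 and 8.19 in the inhibitor arrays, so the groups overlapped. The means were 8.25 ± 0.030 (SD, n = 3) and 8.24 ± 0.080 (SD, n = 3), and the difference was -0.0022 (SE 0.087). The 95% interval of this difference ran from -0.20 to 0.20, or from 0.871-fold to 1.14-fold. The sign of so small a difference has no weight, and it turned without control replicate 1 (0.011), control replicate 3 (0.00083), inhibitor replicate 2 (0.015) or inhibitor replicate 3 (0.026), and when its probe sets were reduced to their median or to the brightest one. At 3 of its 6 probe sets the difference was positive and at 3 negative, from -0.29 to 0.28. The brightest one read 11.10 in control and 11.19 in inhibitor arrays.

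FOXO3, which drives genes of stress resistance, autophagy and cell death, was the noisiest of the 10 genes. It read 4.82, 5.53 and 5.22 in the control arrays and 5.43, 5.50 and 4.77 in the inhibitor arrays, with the lowest inhibitor array below every control array and the groups otherwise interleaved. The means were 5.19 ± 0.35 (SD, n = 3) and 5.23 ± 0.40 (SD, n = 3), a difference of 0.042 (SE 0.23), with a 95% interval from 0.72-fold to 1.47-fold. Without control replicate 1, the array that stood furthest from the rest, the difference was -0.14. Without inhibitor replicate 1 it was -0.053, without inhibitor replicate 2 -0.092, and without inhibitor replicate 3 it was 0.27.

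Only 1 of the 4 FOXO3 probe sets lay above the array medians, and that probe set averaged 8.0 in both groups. The other 3 averaged 5.38 to 5.45, 3.55 to 3.73 and 3.77 to 3.82 in the group means, and 1 of them ranged from 2.21 to 4.65 within the inhibitor group. A further probe set names both FOXO3 and FOXO3B, a near-identical copy of the gene elsewhere in the genome, and was left out by the rule. It read 8.92, 8.67 and 8.73 in control and 8.63, 8.66 and 8.62 in inhibitor arrays, a difference of -0.14, and with it included the FOXO3 difference was 0.0067. Reads of the 2 loci cannot be told apart in that probe set.

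FOXO4, the third factor of the family measured, was not one of the 10 genes but stands beside them. It read 6.07, 6.13 and 5.89 in the control arrays and 5.71, 5.60 and 5.46 in the inhibitor arrays. Every inhibitor array was below the lowest control array. The means were 6.03 ± 0.12 (SD, n = 3) and 5.59 ± 0.13 (SD, n = 3), a difference of -0.44 (SE 0.11), with an adjusted p of 0.79 in limma, so it was not called. Of all genes, 0.418% had a more negative difference. At 8 of its 9 probe sets the difference was negative, from -1.17 upwards, but at only 1 of them did the groups of arrays not overlap. Only 5 of the 9 lay above the array medians. The difference was -0.20 with the median of the probe sets in each array and -0.33 with the brightest probe set. It was -0.35 without the dimmest 30% of probe sets and -0.38 to -0.51 with 1 array left out.

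IRS1 and IRS2 are the adaptors that carry the signal from the insulin and IGF-1 receptors to PI3K, and IRS2 is a well-known FOXO target in liver. IRS1 read 6.85, 6.79 and 6.73 in control and 6.96, 6.84 and 6.88 in inhibitor arrays, so the lowest inhibitor array lay just below the highest control array. Its means were 6.79 ± 0.058 (SD, n = 3) and 6.89 ± 0.063 (SD, n = 3), a difference of 0.10 (SE 0.087), the most positive of the 10. A single probe set carried it: that one, the brightest, read 7.46, 7.18 and 7.19 in control and 7.84, 7.79 and 7.81 in inhibitor arrays, a difference of 0.54. The other 3 had differences of 0.10, -0.14 and -0.090, and with the median of the 4 probe sets the IRS1 difference was -0.10.

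IRS2 was dim, with both of its probe sets below the array medians. It read 3.69, 3.70 and 3.55 in control and 3.55, 3.56 and 3.55 in inhibitor arrays, and the lowest control array, at 3.545, lay below every inhibitor array. The means were 3.64 ± 0.085 (SD, n = 3) and 3.55 ± 0.0029 (SD, n = 3), with a difference of -0.092 (SE 0.087). The small SD of the inhibitor group is that of the mean of 2 probe sets, which read 1.81 to 1.94 and 5.16 to 5.30 there.

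BCL6, a zinc finger repressor that FOXO factors induce in lymphoid and leukaemic cells, had the most negative difference of the 10. It read 6.68, 6.69 and 6.47 in the control arrays and 6.21, 6.33 and 6.41 in the inhibitor arrays. The highest inhibitor array was still below the lowest control array, with a gap of 0.06 between the nearest 2. The means were 6.62 ± 0.12 (SD, n = 3) and 6.32 ± 0.10 (SD, n = 3), a difference of -0.30 (SE 0.10), or 0.814-fold. Of all genes, 1.78% had a more negative difference.

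All 10 BCL6 probe sets had a negative difference, though not of one size. The most negative read 7.95, 7.95 and 7.97 in control and 7.39, 7.26 and 7.29 in inhibitor arrays, a difference of -0.64. The brightest read 8.67, 8.34 and 8.33 in control and 8.05, 7.96 and 8.22 in inhibitor arrays, a difference of -0.37. At 4 of the 10 the groups did not overlap, inhibitor arrays being lower, as in 6.32% of all probe sets, and at 3 the difference was only -0.063 to -0.067. The 10 probe sets read 1 message and are not replicates of the treatment. Leaving out 1 array gave differences of -0.37 to -0.24, and none of the alternatives run turned the sign.

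CITED2, a CBP/p300-binding protein that restrains hypoxia signalling, read 7.18, 7.15 and 7.26 in control and 7.20, 7.10 and 6.99 in inhibitor arrays. The highest inhibitor array lay within the control range and the other 2 below it. The means were 7.20 ± 0.055 (SD, n = 3) and 7.10 ± 0.11 (SD, n = 3), a difference of -0.10 (SE 0.093). At 4 of its 5 probe sets the difference was negative, from -0.25 to -0.087, and at the dimmest it was 0.27. Taking the median over its probe sets in each array gave -0.22, and leaving out 1 array gave -0.15 to -0.046.

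CCNG2 encodes cyclin G2, an unusual cyclin that holds cells out of the cycle and is a direct FOXO target. It read 6.51, 6.73 and 6.61 in control and 6.67, 6.51 and 6.64 in inhibitor arrays, fully interleaved, with a difference of -0.0098 (SE 0.097). Its 15 probe sets ran from -0.55 to 0.59, 9 positive and 6 negative. The extremes were both dim, at 1.73 and 1.19 in the control and inhibitor means of the lowest and 3.41 and 4.01 of the highest. Of the 9 above the array medians, 1 lay wholly lower in inhibitor arrays (9.30 and 8.81 in the means) and 1 wholly higher (8.27 and 8.5). The CCNG2 difference became 0.25 with the median of its probe sets, 0.047 without control replicate 2 and 0.038 without inhibitor replicate 2.

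SESN3, one of the sestrins that restrain mTORC1 and buffer oxidants, was dim, and none of its 11 probe sets lay above the array medians. It read 2.54, 2.37 and 2.43 in control and 2.49, 2.44 and 2.59 in inhibitor arrays, and the groups overlapped. The difference was 0.061 (SE 0.092). Its probe sets ran from -0.45 to 0.98, the widest scatter of the 10 genes (SD 0.39). The highest difference came from a probe set with group means of 1.34 and 2.33, and the brightest one gave -0.11. With levels this low, these arrays hold little about SESN3 in either group.

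TXNIP, the thioredoxin-binding arrestin that limits glucose uptake, was bright, with all 10 probe sets above the array medians. It is also the gene whose promoter window holds the GTAAACA core shown above. It read 10.13, 10.11 and 10.06 in control and 10.01, 9.85 and 10.11 in inhibitor arrays. Inhibitor replicate 3 lay within the control range and the other 2 below it. The means were 10.10 ± 0.036 (SD, n = 3) and 9.99 ± 0.14 (SD, n = 3), a difference of -0.11 (SE 0.097). At 8 of its 10 probe sets the difference was negative, and at 2 the inhibitor arrays were lower without overlap (-0.30 and -0.17). Leaving out 1 array gave -0.18 to -0.041, the latter without inhibitor replicate 2.

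PINK1, the kinase that marks damaged mitochondria for removal by Parkin, read 6.50, 6.37 and 6.42 in control and 6.23, 6.30 and 6.13 in inhibitor arrays. The groups did not overlap, with the nearest 2 only 0.07 apart. The means were 6.43 ± 0.065 (SD, n = 3) and 6.22 ± 0.084 (SD, n = 3), a difference of -0.21 (SE 0.090), or 0.864-fold. Of all genes, 5.77% had a more negative difference.

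At 10 of the 12 PINK1 probe sets the difference was negative, down to -0.50. Its brightest probe set went the other way, reading 7.96, 7.98 and 8.03 in control and 8.28, 8.12 and 7.96 in inhibitor arrays, a difference of 0.13. Another 3 probe sets have identifiers far from the run of the other 9, and 2 of these 3 held the same values on all arrays. An antisense transcript, PINK1-AS, overlaps the gene, and which of the 2 transcripts these 3 probe sets read is not given in the sources used here. Without the 3 the PINK1 difference was -0.22 (SE 0.11), and with the identical pair counted once it was -0.22 (SE 0.095). In both settings PINK1 no longer had an unadjusted p under 0.05 in limma. The number of all genes under that threshold went from 1141 to 1140 in each.

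**Figure D3:**
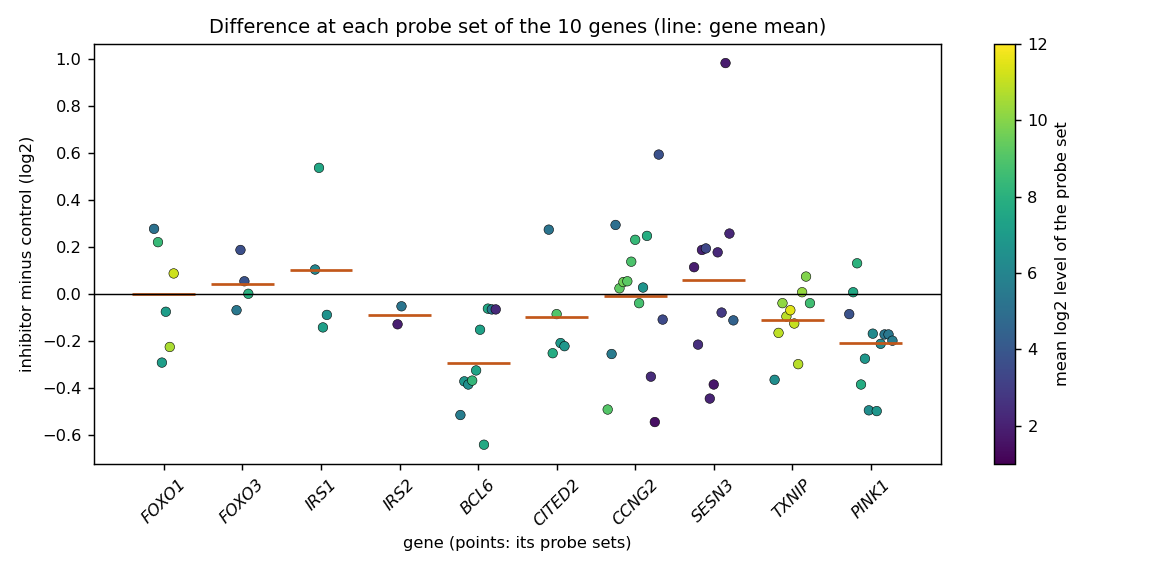
Difference at each of the 79 probe sets (points, inhibitor minus control, log2), coloured by the mean log2 level of the probe set, with the gene mean as a line. All 10 BCL6 points lie below 0, the dark, dim points of SESN3 and CCNG2 scatter widest, and a single IRS1 point at 0.54 stands above the other 3.

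Over the 79 probe sets, 51 had a negative and 27 a positive difference and 1 was at 0, against 49.8% negative over all named probe sets. The inhibitor arrays were lower without overlap at 14 of them, or 17.7%, against 6.32% over all, and higher without overlap at 3, or 3.80%, against 5.89% over all. BCL6 and PINK1 supplied 7 of the 14. Probe sets of a gene share their message and their arrays, and these counts belong to the comparison that guided the choice of genes. Array by array, inhibitor replicate 3 was the lowest of the 6 arrays for FOXO1, FOXO3, CITED2 and PINK1, and control replicate 2 the highest for FOXO3, IRS2, BCL6 and CCNG2.

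Another 60 genes of the pathway, from the receptors down to the targets, were taken from a list. In limma, 0 of the 60 were called higher and 0 lower, against 0% of all genes in each direction, and at an unadjusted p under 0.05 there were 0 higher, against 2.95% of all genes, and 3 lower (FOXO4, AKT1 and MXI1), or 5.00%, against 3.16% of all genes. A positive difference was found for 31 and a negative one for 29, with a median of 0.012 beside 0.0021 over all genes. The sign of that median turned with 1 array left out or another way of combining probe sets, so it gives no direction. The inhibitor arrays were lower without overlap for 7 of the 60, or 11.7%, against 7.68% of all genes, and higher without overlap for 0, against 5.19%. Those 7 were FOXO4, AKT1, AKT2, PIK3R2, MTOR, MXI1 and ERBB3, of which AKT2, PIK3R2 and MTOR are named after their values were seen.

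**Figure D4:**
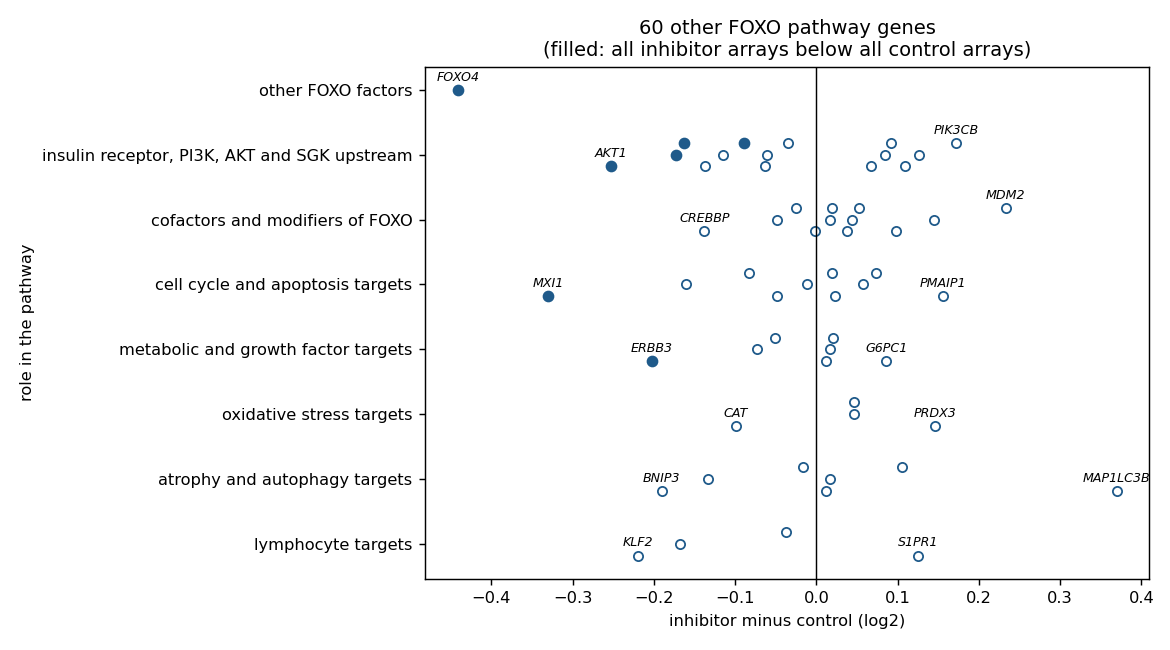
Differences of the 60 other pathway genes (points, inhibitor minus control, log2) by role, with the genes of each role that had the most extreme moderated t in either direction named. Filled points are the 7 genes whose inhibitor arrays all lay below the control arrays; FOXO4, at -0.44, lies furthest to the left and MAP1LC3B, at 0.37, furthest to the right.

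Upstream of the factors, 9 of 15 genes had a negative and 6 a positive difference, with a median of -0.061 and 0 called by limma, 1 being lower at an unadjusted p under 0.05, where 3.16% of all genes were. AKT1, the kinase that phosphorylates FOXO proteins, read 9.08, 9.10 and 9.10 in control and 8.86, 8.74 and 8.91 in inhibitor arrays, without overlap. Its difference was -0.25 (SE 0.087, adjusted p 0.79 in limma), negative at 16 of its 17 probe sets, -0.13 with the median of them and -0.46 at the brightest. AKT2, its paralogue, read 9.31, 9.33 and 9.29 in control and 9.04, 9.20 and 9.18 in inhibitor arrays, a difference of -0.17 (SE 0.087), negative at 19 of 21 probe sets. PIK3R2, a regulatory subunit of PI3K, had -0.16 (SE 0.085) and the kinase MTOR -0.089 (SE 0.081), which shrank to -0.053 and -0.012 with the median over probe sets. PIK3CB, a catalytic subunit of PI3K, had the most positive value of this group, 0.17 (SE 0.12), with overlapping arrays. It was 0.077 without control replicate 1, 0.11 without inhibitor replicate 3, 0.26 without control replicate 3, 0.080 with the median over probe sets and 0.076 when the dimmest 30% of probe sets were dropped. INSR and IGF1R, the receptors for insulin and IGF-1, had -0.14 (SE 0.097) and -0.061 (SE 0.089), also with overlap. INSR was at -0.31 with the median over probe sets and -0.072 without inhibitor replicate 2, and IGF1R at -0.022 without that array. These 2 genes are named after their values were seen, as the receptors that IRS1 and IRS2 serve.

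Cofactors and modifiers of FOXO proteins had a positive difference in 8 of 12 and a negative one in 4, with a median of 0.028 and 0 called by limma, also 0 at an unadjusted p under 0.05. MDM2, a ubiquitin ligase for p53 and for FOXO proteins, read 9.80, 9.80 and 9.94 in control and 9.91, 10.09 and 10.23 in inhibitor arrays, a difference of 0.23 (SE 0.11), with 1 inhibitor array inside the control range. Its 16 probe sets reached 1.44 at the most positive, and the MDM2 difference was 0.0017 when their median was taken in each array. CREBBP, an acetyltransferase and coactivator, had -0.14 (SE 0.11), which was -0.043 without control replicate 1, -0.23 without control replicate 2 and -0.27 with the median.

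Among targets of cell-cycle arrest and apoptosis, 5 had a positive and 5 a negative difference, with a median of 0.0033 and 0 called by limma, 1 being lower at an unadjusted p under 0.05, where 3.16% of all genes were. MXI1, an antagonist of MYC, read 7.27, 7.32 and 7.28 in control and 6.91, 6.84 and 7.13 in inhibitor arrays, without overlap, a difference of -0.33 (SE 0.10, adjusted p 0.79 in limma). It was negative at 10 of 13 probe sets, down to -1.77 at the most negative. The MXI1 difference was -0.27 with the median over probe sets and -0.16 at the brightest. PMAIP1, which encodes the death-promoting BH3 protein NOXA, had 0.16 (SE 0.15), and -0.0060 without control replicate 1. Its 7 probe sets, 4 positive and 3 negative, ran from -0.55 to 1.51, and only 2 lay above the array medians. The PMAIP1 difference was 0.14 with the median over probe sets and 0.093 at the brightest. The arrest genes CDKN1A and CDKN1B, which encode p21 and p27, had 0.057 (SE 0.089) and -0.012 (SE 0.091). CDKN1A turned to -0.15 with the median over probe sets, and CDKN1B read -0.44 at its brightest probe set. The death gene BCL2L11, which encodes BIM, had 0.023 (SE 0.086), but -0.45 at its brightest probe set; these 3 textbook FOXO targets are named after their values were seen.

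The metabolic and growth factor targets had 4 positive and 3 negative differences. ERBB3, a receptor that FOXO factors raise when AKT is inhibited, read 8.22, 8.02 and 8.05 in control and 7.89, 7.79 and 8.004 in inhibitor arrays, a difference of -0.20 (SE 0.099) without overlap, but -0.067 with the median over probe sets and 0.010 at the brightest. G6PC1, the glucose-6-phosphatase of liver, had 0.086 (SE 0.096) at a mean of 3.03 in control arrays, and -0.21 with the median over probe sets. Of the 4 oxidative stress targets 3 were positive, with PRDX3, a mitochondrial peroxiredoxin, at 0.15 (SE 0.12) and catalase, CAT, at -0.099 (SE 0.095). PRDX3 was at 0.030 without control replicate 1 and 0.098 without inhibitor replicate 3, and CAT at -0.16 without inhibitor replicate 3 and -0.037 with the median over probe sets.

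Atrophy and autophagy targets had 4 positive and 3 negative differences. MAP1LC3B, the LC3 protein of autophagosomes, read 5.90, 6.13 and 5.83 in control and 6.84, 6.25 and 5.88 in inhibitor arrays, a difference of 0.37 (SE 0.22) that rested largely on inhibitor replicate 1: without that array it was 0.11. Its brightest probe set gave 0.0067. BNIP3, a mitophagy receptor, had -0.19 (SE 0.10), and 0.14 at its brightest probe set. BNIP3 was dim, with 1 of its 10 probe sets above the array medians. Its difference was -0.055 (SE 0.26) without the dimmest 30% of probe sets. Of the 4 lymphocyte targets 3 were negative, with KLF2 at -0.22 (SE 0.12) and S1PR1 at 0.13 (SE 0.11). KLF2 was at -0.14 without control replicate 1 or inhibitor replicate 3. It was at -0.30 without inhibitor replicate 2 and at -0.35 with the median over probe sets. S1PR1 was at 0.032 without control replicate 2, 0.075 without inhibitor replicate 1, 0.60 with the median over its dim probe sets and -0.13 at the brightest. None of the genes in these last 4 groups was called by limma, and 0 had an unadjusted p under 0.05.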

How the data were processed

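The authors deposited log2 expression values for 257430 exon-sized probe sets of the Affymetrix Human Gene 1.0 ST array, 1 column for each of 6 arrays, made from 500 ng of total RNA per sample per the labels' protocols. Per the submitters' processing notes the tools were Transcriptome Analysis Console, Affymetrix Expression Console and RMA, with versions and settings not given in the sources used here. RMA hides a shift common to most genes. The number of arrays limits the precision.

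A single gene is named for 224320 probe sets. Older symbols were updated through the RefSeq table of GRCh38.p14. Gene values are means over probe sets, without a filter on dim genes. Groups were compared over all 18656 genes with limma 3.58.1 (R 4.3.3, lmFit and eBayes, no replicate block), with Benjamini-Hochberg adjustment and a threshold of 0.05. The fit was tested on simulated data.

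The members, the pathway list and the alternatives were chosen with earlier results of these data known. All members are named, and of the pathway list the genes with the most positive and most negative moderated t in each role; exceptions are stated. Protein sequences were not used here, so the planned comparison of FOXO1 and FOXO3 proteins was not run. Alternatives covered the replicate block, each array left out, the combination of probe sets, dim probe sets and genes, normalization and the variance estimate. The choice of FOXO3 and PINK1 probe sets was varied, and the alternatives were extended to pathway genes, after seeing the data.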

Additional observations from a re-analysis of the deposited data

How the results depend on the processing

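Limma called 0 genes in all under each alternative except without control replicate 3, so that leaving out 1 array gave 0 to 1 called genes, the 1 being higher in inhibitor arrays and neither a member nor on the pathway list. The median difference of the 10 genes stayed negative throughout, from -0.092 to -0.027, and 2 to 4 of the 10 were positive. The median of the 10 genes in each array had a within-group SD of 0.072. Every alternative drew on these same arrays, so the unchanged sign carries no test. The median of the pathway list, 0.012, was -0.023 to 0.018 with 1 array left out, -0.016 with the median of probe sets, -0.037 with the brightest and -0.00035 when the dimmest 30% of them were left out. BCL6, TXNIP, CITED2 and IRS2 kept a negative difference under every alternative in which they could be computed; IRS2 and SESN3 drop out without the dimmest 30% of genes, and SESN3 without the dimmest 30% of probe sets.

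When each gene was read by its brightest probe set, the sign turned for PINK1 (0.13), SESN3 (-0.11), FOXO1 (0.087), CCNG2 (0.050), BNIP3 (0.14), ERBB3 (0.010), S1PR1 (-0.13), CDKN1A (-0.040) and BCL2L11 (-0.45). With the median of probe sets it turned for CCNG2 (0.25), FOXO1 (0.028), IRS1 (-0.10), G6PC1 (-0.21), CDKN1A (-0.15) and BCL2L11 (-0.0050), and without the dimmest probe sets for CCNG2 (0.025), FOXO3 (-0.035) and BCL2L11 (-0.015). With 1 array left out, FOXO1 ran from -0.048 to 0.026, FOXO3 from -0.14 to 0.27, CCNG2 from -0.063 to 0.047, PMAIP1 from -0.0060 to 0.26, CDKN1B from -0.066 to 0.022 and BCL2L11 from -0.0030 to 0.062. The cause was not tested. The replicate block gave the same differences, with 0 genes called and the lowest adjusted p of the 10 at 0.73 in limma. Deviations of same-numbered arrays correlated at -0.032, -0.040 and 0.17 across genes. The highest value of any pair, 0.21, was between control replicate 1 and inhibitor replicate 2. With 3 arrays per group, such values cannot show whether the cultures were paired. The arrays were treated as unpaired because the labels name no factor besides the group. Dim probe sets limit what FOXO3, IRS2 and SESN3 can show.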
